A study of Mus musculus with 4 samples.

Results

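The neurotrophin family was examined in mouse dorsal cortex, as the genes for the neurotrophins BDNF (Bdnf) and NT-3 (Ntf3) and for the receptors TrkB (Ntrk2), TrkC (Ntrk3) and p75NTR (Ngfr). These 5 genes were chosen by name, and each was read from the array feature whose platform annotation gives that gene symbol alone, taking the brightest where a gene had several. Of the 5, 4 were found among 19938 genes with a value, each with 1 feature, and all 4 passed the filter on dim genes that left 13956 genes for testing. Ntf3 had no such feature in the annotation used here and was not analysed here.

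Dorsal cortex was taken at E18.5 (counted in embryonic days) from 2 mutant and 2 control samples, and each was hybridised to its own single-colour whole-transcript array. The mutants carry only floxed copies of Mek1, have no Mek2 (Mek2-/-) and carry NestinCre. The controls are Mek1 fl/wt (1 floxed copy, 1 wild-type) and likewise Mek2-/-, so both groups lack Mek2, although the series' design text calls the controls WT. Since no control is labelled with NestinCre, the transgene and the loss of Mek1 cannot be told apart here. NestinCre expresses Cre recombinase in neural progenitors, and with them in the neurons and glia they give rise to, while vessels, microglia and meninges come from other lineages. The kinases MEK1 and MEK2 activate ERK1 and ERK2 by phosphorylation. The comparison asks how the transcripts of the cortex before birth differ when Mek1 is lost too, with Mek2 absent in both groups.

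Neurotrophins are secreted as dimers, cut from larger precursors, and bind 2 kinds of receptor. The Trk receptors are tyrosine kinases, of which TrkB is the main receptor for BDNF and TrkC the receptor for NT-3, and each signals through adaptors of the Shc and Frs families to RAS and ERK, through PI3 kinase to AKT, and through phospholipase C gamma. p75NTR is a receptor of the tumour necrosis factor receptor family that binds all neurotrophins and, with sortilin, their precursors. In the cortex, TrkB is made by neurons with a kinase domain and by astrocytes mainly as a truncated form without one. Bdnf is made by excitatory neurons from several alternative promoters, some of which respond to calcium and to ERK through the transcription factor CREB. The series therefore measures genes that stand upstream of MEK (ligands and receptors) and genes whose transcription the pathway can drive.

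Promoter sequences were read from the RefSeq table for GRCm38.p6 as the 250 bases before each annotated start, and 4 of the 5 genes had at least 1 such window. Bdnf had 7 windows, Ntf3 had 2, and Ntrk2 and Ngfr had 1 each. The windows were searched on both strands for the cyclic AMP response element TGACGTCA, for its half-site CGTCA (which is contained in it) and for the ETS motif CCGGAAGT. The Bdnf window below is shown because it was the only one of the 11 that held any of these motifs, and the Ntrk2 window because Ntrk2 had the smallest p of the family. Capitals mark the half-site CGTCA, which starts 35 bases before the annotated start. That Bdnf window lies at chr2:109692186-109692435 on the plus strand, and the Ntrk2 window at chr13:58806319-58806568 on the plus strand.
Bdnf: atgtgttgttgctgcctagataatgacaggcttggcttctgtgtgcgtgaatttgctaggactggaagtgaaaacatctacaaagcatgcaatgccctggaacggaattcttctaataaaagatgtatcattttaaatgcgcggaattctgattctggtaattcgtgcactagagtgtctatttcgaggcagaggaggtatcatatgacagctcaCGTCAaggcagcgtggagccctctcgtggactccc
Ntrk2: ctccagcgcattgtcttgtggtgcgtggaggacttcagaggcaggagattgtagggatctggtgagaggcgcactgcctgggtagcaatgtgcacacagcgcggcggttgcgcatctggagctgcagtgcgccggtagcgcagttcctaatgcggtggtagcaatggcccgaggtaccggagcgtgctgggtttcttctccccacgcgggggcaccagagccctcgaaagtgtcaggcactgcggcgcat
Of all 32851 windows of the same length, 17.8% held the half-site, 1.55% held the complete element and 2.88% held the ETS motif. A match describes letters in the window and is not a measured site. The Bdnf feature is annotated to 11 RefSeq transcripts and the Ntrk2 feature to 3, so neither value tells promoters or isoforms apart, including the truncated and the kinase-bearing forms of TrkB.

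All values below are log2 expression as deposited, after RMA by the authors. A level is comparable between arrays for 1 feature but not between features, so the genes are not ranked against each other. Array medians lay between 7.11 and 7.13. Over the genes tested, a mutant and a control differed by a root mean square of 0.178 to 0.230, the 2 mutants by 0.191 and the 2 controls by 0.149, so 1 mutant lay nearer to a control than to the other mutant. Litter, batch and the number of embryos per group are not stated in the labels, so p-values measure the spread between these samples. The targeted gene Map2k1 (Mek1) was at 8.50 and 8.73 in mutants, against 8.76 and 8.84 in controls (difference -0.19 ± 0.09 SE, limma adjusted p = 0.469), and Map2k2 (Mek2) was at 8.57 and 8.64 in mutants, against 8.57 and 8.47 in controls. Where the probes of these 2 features lie relative to the deletions is not stated, so they do not check the genotypes. Of the dorsal cortex markers fixed for this work, 6 of 8 were measured, and Neurod6, Tbr1, Neurod2, Bcl11b and Emx1 did not pass the test, with differences between 0.04 and 0.20. Emx2, a regulator of cortical progenitors, was at 6.70 and 7.56 in mutants, against 7.80 and 7.86 in controls, and did not pass either (-0.70, adjusted p = 0.363). Its difference was -0.27 without mutant replicate 1 and -1.13 without mutant replicate 2. In the marker lists of 11 other cell types or regions, from interneurons to vessels and blood, 1 of 54 tested markers was called (against 1.02% of all genes), the microglial gene Fcrls, lower in mutants (limma adjusted p = 0.0254). All 5 microglia markers tested of 7 had lower values in mutants without overlap, a pattern seen in 21.4% of all genes tested. Of these 5, 4 were lower at an unadjusted p under 0.05, against 1073 of 13956 genes tested. The microglia list's mean level was 7.12 and 7.17 in mutants, against 7.50 and 7.49 in controls. Of 6 striatum markers, 2 were higher at an unadjusted p under 0.05, against 799 of 13956 genes tested. These were Ppp1r1b by 0.52 (limma adjusted p = 0.122) and Foxp2 by 0.33 (adjusted p = 0.291). The striatum list's mean level was 7.70 and 7.61 in mutants, against 7.50 and 7.47 in controls. Of 6 hippocampus markers 5 had a lower mean in mutants, with list means of 7.41 and 7.67, against 7.73 and 7.82 in controls. All 6 Cajal-Retzius markers had a lower mean, with list means of 7.86 and 8.23, against 8.26 and 8.20. Both lists were lowest on mutant replicate 1. The part of these cells in the values of the neurotrophin family was not tested.

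The mRNAs of TrkB, TrkC, p75NTR and BDNF were each slightly higher in mutant than in control cortex, by 0.04 to 0.15 on the log2 scale, and none of the 4 passed the test. In limma, with Benjamini-Hochberg adjustment over all genes tested and a call at an adjusted p under 0.05, 0 of the 4 were called, and 0 reached an unadjusted p under 0.05. Over all genes tested, 1.02% were called, with 141 genes lower in mutants (1.01%) and 2 higher (0.0143%). An unadjusted p under 0.05 was reached by 1073 genes lower in mutants and 799 higher. For each of the 4 genes both mutant arrays lay above both control arrays. Such a pattern, higher in mutants without overlap, was seen in 22.8% of all genes tested (3187 of 13956). The median difference of the 4 was 0.11, against 0.01 over all genes tested.

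**Figure D1:**
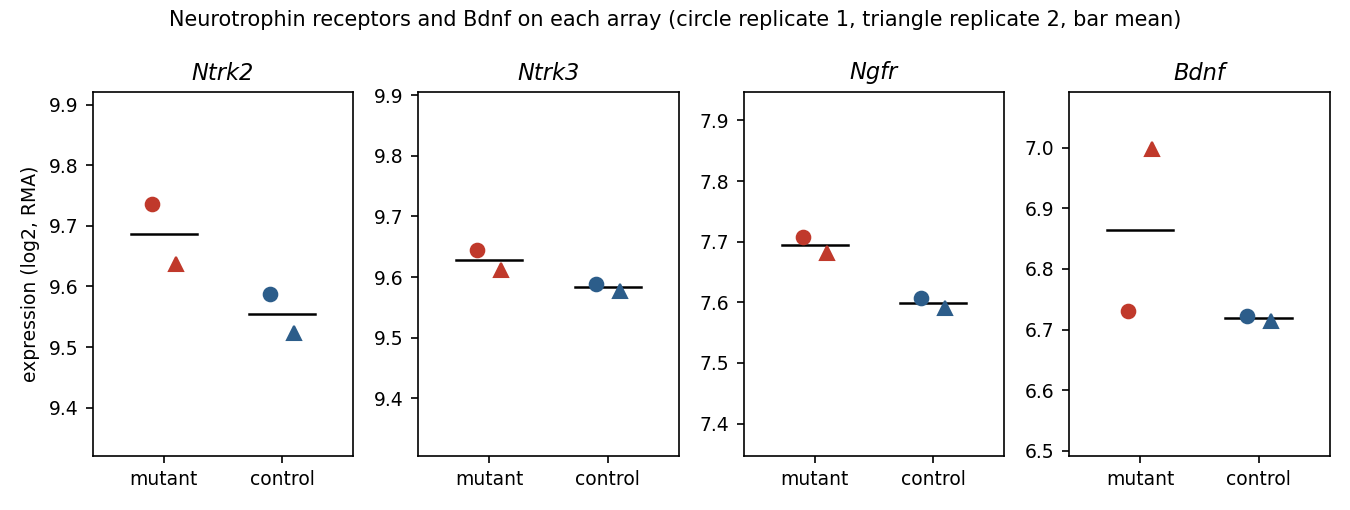
Log2 expression (RMA, vertical axis, the same span in each panel but not starting at 0) of Ntrk2, Ntrk3, Ngfr and Bdnf on the mutant (left, red) and control (right, blue) arrays, with circles for replicate 1, triangles for replicate 2 and bars for the mean of 2 arrays. Both mutant arrays lie above both control arrays in each panel, and Bdnf stands apart on mutant replicate 2 alone (7.00).

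Ntrk2 encodes TrkB, the receptor for BDNF. It was at 9.74 and 9.64 on the mutant arrays, against 9.59 and 9.52 on the control arrays. The groups did not overlap, but the lower mutant and the higher control were closer to each other than the members of either pair. The mutant mean was 9.69 ± 0.07 and the control mean 9.56 ± 0.05 (SD, n = 2 each). The difference was 0.13 ± 0.06 (SE) and was not called in limma (adjusted p = 0.466). As a ratio this is 1.10-fold, with a 95% interval of 0.978 to 1.23. Of all genes tested, 75.3% differed by less in size.

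Glia and progenitors can also make TrkB. Of 21 tested markers of these cells, 8 fell and none rose in limma, against 1.01% of all genes called lower. The mean was lower in mutants for 19 of the 21, where 52.3% of all genes tested had a higher mean. Among markers not called, Olig2 (-1.85), Fgfr3 (-0.53) and Sox2 (-0.47) differed by more than Ntrk2. Gfap (0.04), Cspg4 (0.01) and Prom1 (-0.10) differed by less. Of 9 astrocyte markers 7 were tested, 3 of them fell (Aldoc, Slc1a3 and Aldh1l1) and none rose, and the mean log2 level of the list was 8.23 and 8.62 in mutants, against 9.34 and 9.38 in controls. The astrocyte markers Aqp4 and S100b lay under the filter on dim genes. Aqp4 was at 5.81 and 5.60 in mutants, against 6.60 and 6.58 in controls, and S100b at 5.50 and 5.23, against 5.71 and 5.50. Of 8 radial glia markers 2 fell (Fabp7 and Hopx), and the list's mean level was 9.06 and 9.27 in mutants, against 9.66 and 9.70 in controls. Of 6 oligodendrocyte precursor markers 3 fell (Pdgfra, Olig1 and Gpr17), with a mean level of 6.36 and 6.34 in mutants, against 7.65 and 7.67 in controls. The part of these cells in the Ntrk2 value was not tested. In whole tissue, fewer cells of a type and less RNA per cell cannot be told apart.

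Ntrk3 encodes TrkC, the receptor for NT-3. It was at 9.64 and 9.61 on the mutant arrays, against 9.59 and 9.58 on the control arrays. All 4 values lay close together. The mutant mean was 9.63 ± 0.02 and the control mean 9.58 ± 0.01 (SD, n = 2 each), and the difference of 0.04 ± 0.05 (SE) did not pass in limma (adjusted p = 0.799). The interval of the ratio ran from 0.937 to 1.13. It was the smallest difference of the 4 genes, and 64.4% of all genes tested differed by more.

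Ngfr encodes p75NTR, which in the developing cortex is known from subplate neurons. It was at 7.71 and 7.68 on the mutant arrays, against 7.61 and 7.59 on the control arrays. The gap between the groups was wider than the distance within either pair. The mutant mean was 7.69 ± 0.02 and the control mean 7.60 ± 0.01 (SD, n = 2 each). The difference of 0.10 ± 0.05 (SE) was not called in limma (adjusted p = 0.533). The pairs of Ngfr were tighter than those of most genes, with a pooled SD at the percentile 5.25 of all genes tested, and limma draws so small a spread towards that of the other genes. The interval of the ratio was 0.971 to 1.17. Of 6 subplate markers 5 were tested and none was called in limma. At an unadjusted p under 0.05, 1 was lower and 1 higher, where of all 13956 genes tested 1073 were lower and 799 higher. The subplate list's mean level was 7.88 and 7.90 in mutants, against 7.96 and 7.98 in controls.

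Bdnf encodes the ligand of TrkB. It was at 6.73 and 7.00 on the mutant arrays, against 6.72 and 6.71 on the control arrays. Only mutant replicate 2 stood apart, since mutant replicate 1 lay within 0.02 of the controls. The mutant mean was 6.87 ± 0.19 and the control mean 6.72 ± 0.01 (SD, n = 2 each). The difference of 0.15 ± 0.10 (SE) was not called in limma (adjusted p = 0.598). Without mutant replicate 2 the difference was 0.01, and without mutant replicate 1 it was 0.28. These levels lie not far above the filter on dim genes, at 6.16, where RMA compresses differences towards 0.

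The intervals bound what these arrays leave possible for the 4 genes. The upper limits of the 95% intervals were 0.18 for Ntrk3, 0.23 for Ngfr, 0.29 for Ntrk2 and 0.39 for Bdnf on the log2 scale, and the lower limits lay between -0.10 and -0.03. The smallest difference among the 143 called genes was 0.41 in size and their median 0.71. Each of the 4 intervals ended below 0.41, that of Bdnf only just. The size 0.41 depends on the threshold and filter used here, and 141 of the called genes were lower. It therefore sets no limit on a true change. With 2 arrays against 2, the exact permutation test cannot give a two-sided p under 0.333, and it gave 0.333 for each of the 4 genes.

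**Figure D2:**
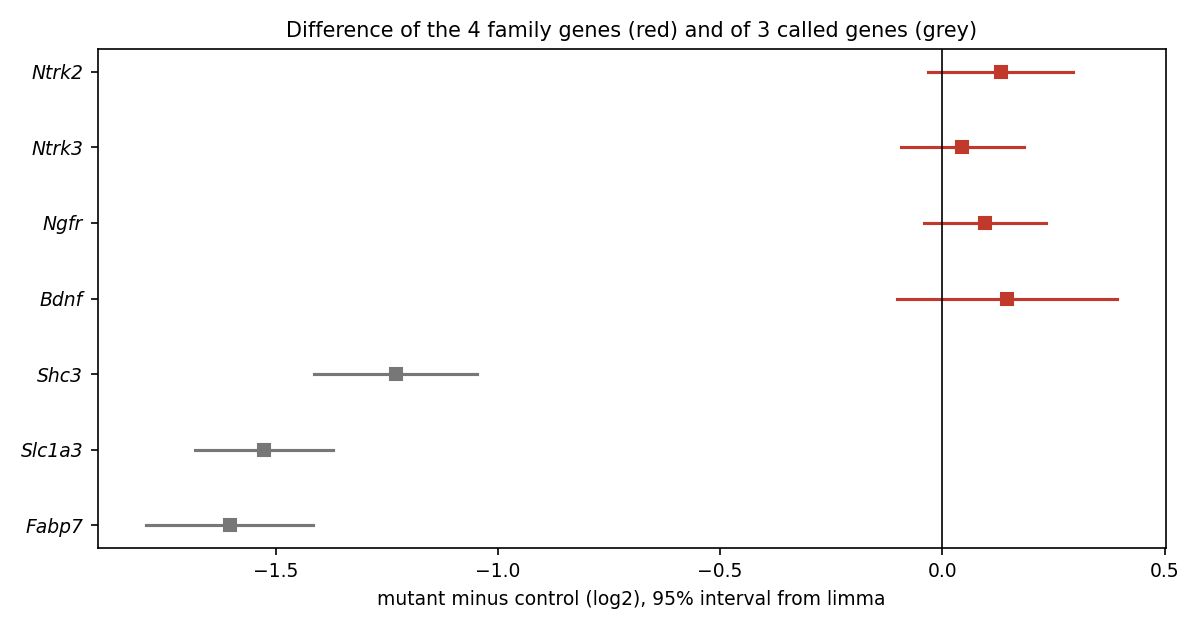
Difference between mutant and control (log2, horizontal axis) with its 95% interval from limma for Ntrk2, Ntrk3, Ngfr and Bdnf (red), and for the called genes Shc3, Slc1a3 and Fabp7 (grey). The 4 red intervals include 0 and end at or below 0.39, and the grey ones lie between -1.79 and -1.05.

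The rest of the pathway was taken from 8 lists by role, with 92 genes, of which 84 had a feature and 81 were tested. In limma 1 of the 81 was called, the adaptor Shc3, lower in mutants, against 1.01% of all genes called lower. At an unadjusted p under 0.05, 7 were lower and 4 higher, where of all 13956 genes tested 1073 were lower and 799 higher. The median difference was 0.01, the same to 2 decimals as over all genes tested. Of the 81 genes, groups did not overlap for 24 in the higher direction and for 22 in the lower. Over all 13956 genes tested these numbers were 3187 (22.8%) and 2989 (21.4%). Both shares were somewhat larger among the 81, and this was not tested.

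**Figure D3:**
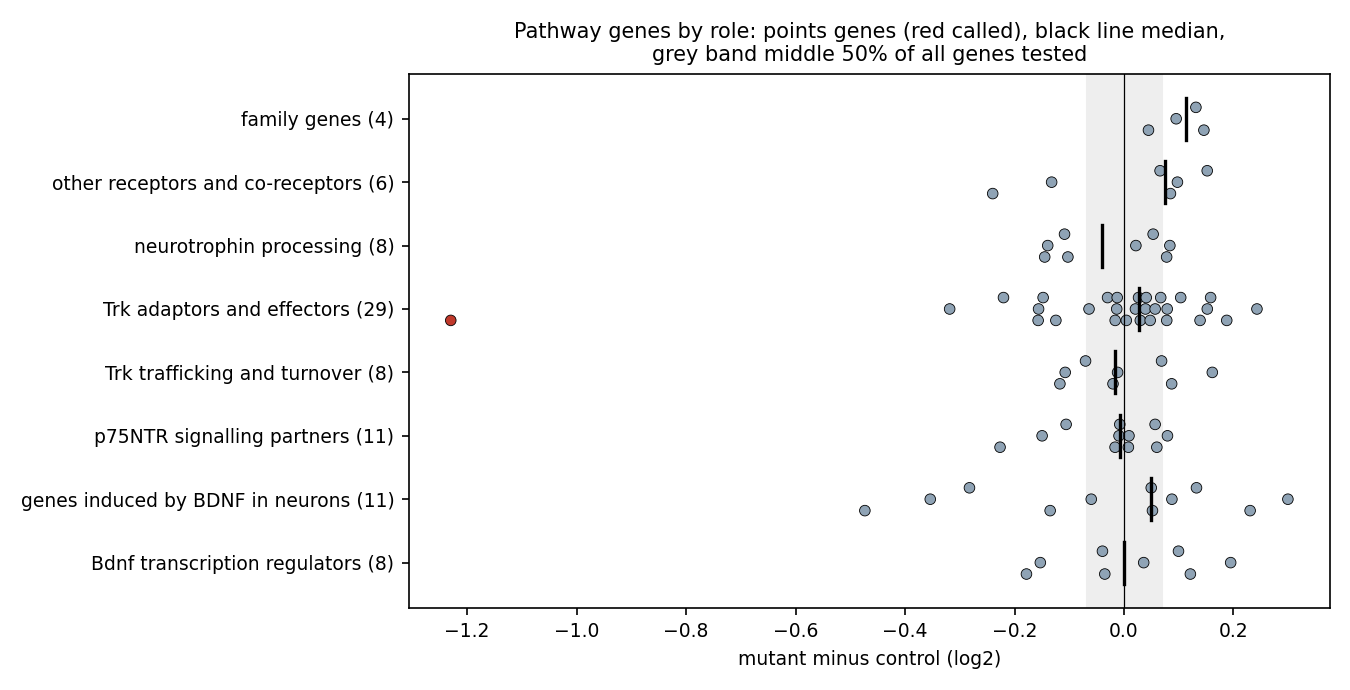
Difference between mutant and control (log2, horizontal axis) of each tested gene (points, red where called) in the family and in 7 lists by role, with the number tested in brackets, black lines for medians and a grey band from -0.07 to 0.07 for the middle of all genes tested. Shc3 at -1.23 stands apart from the other points, which lie between -0.47 and 0.30.

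Among ligands outside the 5 genes, Ntf5 (NT-4, which also binds TrkB) was dim, at 5.69 and 5.66 in mutants, against 5.75 and 5.67 in controls, and lay under the filter. Of 6 other receptors and co-receptors tested, none was called in limma, and 1 was lower at an unadjusted p under 0.05. That gene was Sorcs2, a sortilin-related receptor for precursor neurotrophins, at 7.49 and 7.50 in mutants, against 7.69 and 7.78 in controls (difference -0.24 ± 0.06 SE, adjusted p = 0.203). Sorcs3, its relative, differed by -0.13 (adjusted p = 0.543), with -0.07 without mutant replicate 1, and sortilin itself (Sort1) by 0.07. Both mutant values of Sorcs2 lay below both control values, and the mutant pair was the tighter one. Over all genes tested, 21.4% were lower without overlap. Sorcs2 was picked by p in these same arrays, so this adds no evidence.

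The enzymes that cut precursor neurotrophins showed no call. Of 8 tested, 0 passed in limma and 0 reached an unadjusted p under 0.05. Plat, the tissue plasminogen activator, which starts the cleavage of the BDNF precursor outside the cell, differed by -0.14 (adjusted p = 0.447), with -0.09 without mutant replicate 1, and the convertase Pcsk1 by -0.10 (adjusted p = 0.501). Furin, the convertase of the secretory pathway, differed by 0.08.

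Among 29 adaptors and effectors of the Trk receptors, Shc3 fell and none rose. Shc3, an Shc adaptor of neurons that couples activated Trk receptors to RAS, was at 9.04 and 8.92 in mutants, against 10.16 and 10.27 in controls. The groups were separated by far more than the distance within either pair. Its mean was 8.98 ± 0.08 in mutants and 10.21 ± 0.08 in controls (SD, n = 2 each), 2.35-fold lower in mutants, with a difference of -1.23 ± 0.07 (SE, limma adjusted p = 0.00934). The call was lost without control replicate 1 (difference -1.28, adjusted p = 0.0603) and without control replicate 2 (-1.18, adjusted p = 0.0678), while the size stayed close. In fits with 1 array left out, 1 residual degree of freedom remains. The residual spread of a gene then comes from the complete pair alone, before limma draws it towards that of the other genes. The lone array is assumed to vary like the pair.

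The other Shc genes did not pass in limma. Shc4 was at 6.27 and 6.43 in mutants, against 6.74 and 6.59 in controls (difference -0.32, adjusted p = 0.221), Shc2 differed by 0.19 (0.02 without mutant replicate 2) and Shc1 by 0.10. Nck2, an adaptor that links receptors to the cytoskeleton, was the adaptor with the smallest p in the higher direction, at 9.36 and 9.34 in mutants, against 9.09 and 9.12 in controls (0.24 ± 0.05 SE, adjusted p = 0.164). The adaptor Grb2, the phospholipase Plcg1 and the TrkB scaffold Kidins220 differed by 0.14, 0.03 and 0.06, with adjusted p-values of 0.531, 0.904 and 0.734 in limma. Apart from Shc3, the differences of this list lay between -0.32 and 0.24.

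Genes of Trk trafficking and turnover and of p75NTR signalling were near 0 as lists. Of 8 trafficking genes none was called in limma and 0 reached an unadjusted p under 0.05, with a median difference of -0.02. Usp8, a deubiquitinase of endosomes, differed by -0.11 (adjusted p = 0.480), and Gipc1, an adaptor of receptor transport, by 0.16 (adjusted p = 0.487), which was 0.07 without mutant replicate 2 and 0.25 without mutant replicate 1. Of 11 partners of p75NTR none was called in limma and 1 was lower at an unadjusted p under 0.05, with a median of -0.01. That gene was Adam17, the protease that sheds the outer part of p75NTR, at 8.53 and 8.60 in mutants, against 8.81 and 8.77 in controls (difference -0.23, adjusted p = 0.208). The zinc finger protein Zfp110, a partner of p75NTR in cell death, differed by -0.15 (adjusted p = 0.430), with -0.09 without mutant replicate 1.

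Of 11 tested genes that BDNF induces in cultured neurons, 0 were called in limma. At an unadjusted p under 0.05 there were 3 lower and 2 higher, where of all 13956 genes tested 1073 were lower and 799 higher. Vgf, a secreted neuropeptide precursor, was at 6.79 and 6.95 in mutants, against 7.24 and 7.45 in controls (difference -0.47 ± 0.10 SE, adjusted p = 0.131). Dusp6, the phosphatase that turns ERK off, was at 9.33 and 9.20 in mutants, against 9.67 and 9.56 in controls (-0.35 ± 0.07 SE, adjusted p = 0.140). Nptx2, a synaptic pentraxin, was the third lower gene, at -0.28 (adjusted p = 0.188). In the other direction Arc, a regulator of synaptic strength, was at 7.16 and 7.20 in mutants, against 6.96 and 6.93 in controls (0.23 ± 0.06 SE, adjusted p = 0.187), and the neuropeptide Npy differed by 0.30 (adjusted p = 0.324). Groups did not overlap for any of these 5 genes, but they were picked by p in these same arrays, so this adds no evidence. Over all genes tested, 22.8% were higher and 21.4% lower without overlap. The median of the list was 0.05, and the list thus held differences of both signs, none past the threshold.

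Regulators of Bdnf transcription did not pass either. Of 8 tested, 0 were called in limma and 0 reached an unadjusted p under 0.05. Carf, a factor named for its binding to a calcium-responsive element of a Bdnf promoter, differed by -0.18 (adjusted p = 0.405), with -0.09 without mutant replicate 1. Mef2a, an activity-regulated factor, differed by 0.12 (adjusted p = 0.429). Creb1, which binds the element whose half-site is in capitals in the Bdnf sequence, was at 10.41 and 10.28 in mutants, against 10.42 and 10.33 in controls, and its groups overlapped (difference -0.04, adjusted p = 0.900). These are mRNA levels, and phosphorylation of these proteins was not measured.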

How the data were processed

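RNA (200 ng per array) was labelled with biotin by a whole-transcript protocol, per the labels' protocols. The deposited table holds log2 expression that the authors made with RMA (submitters' processing notes). This method subtracts background, quantile-normalizes the arrays and condenses probes to 1 value per feature, which hides any change common to most transcripts. No version or genome build is given in the sources used here. The range of the values showed the log base. Detection flags were not used, and precision is limited by having 4 arrays.

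Of 35557 features, 21789 have 1 symbol, 1621 have several and 12147 are not listed in the platform annotation. Symbols were matched by Entrez identifier to RefSeq (21698 matched). The brightest feature per gene was kept, and genes with a mean under the 30th percentile (log2 6.16) were left out.

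The test was limma 3.58.1 (R 4.3.3, lmFit and eBayes without covariates), with Benjamini-Hochberg adjustment over the 13956 genes tested, and a two-sided threshold of 0.05, with 2 residual and 3.31 prior degrees of freedom. Intervals are 95% and not adjusted for multiple tests. The fit was run on simulated data with normal noise and spreads drawn from its own fitted model. Its assumptions held there by construction, so this does not check them for these arrays. Same-numbered arrays showed a correlation of deviations of -0.16, so the numbers were not taken as pairs.

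The genes and lists were chosen with earlier results of these data known. The rule names the family, Map2k1 and Map2k2, called pathway genes, the 2 genes with the smallest p per list, and, for a family gene differing by at least 0.3 (none did), the genes nearest in pattern. Ntf5, Sort1, Furin, Shc1, Shc2, Shc4, Grb2, Plcg1, Kidins220, Nptx2, Arc, Npy, Creb1 and single markers were chosen outside it, after their values were seen.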

Additional observations from a re-analysis of the deposited data

How the results depend on the processing

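None of the 4 family genes was called under any of the alternatives run, and each kept its direction. Ntrk2 lay between 0.08 and 0.18, Ntrk3 between 0.03 and 0.07, Ngfr between 0.08 and 0.14 and Bdnf between 0.01 and 0.28, with lowest adjusted p-values of 0.220, 0.683, 0.332 and 0.136 in limma. Bdnf lay below the stricter filter (50th percentile) and has no value there. Leaving out 1 array at a time gave 0.08 to 0.18 for Ntrk2, 0.03 to 0.06 for Ntrk3, 0.08 to 0.11 for Ngfr and 0.01 to 0.28 for Bdnf.

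The number of genes called over the whole table (141 lower, 2 higher) moved more. It was 15 lower and 0 higher without a filter, 11 higher under the stricter filter, 1 higher after further quantile normalization, 217 lower and 21 higher with an intensity trend, and 0 in both directions when all features of the table were tested, where Shc3 was not called and 0 pathway genes were. Without 1 array it ran from 9 to 731 lower and from 0 to 150 higher, and pathway genes called ran from 0 to 5 lower and from 0 to 2 higher. These fits take a gene's residual spread from 1 complete pair, with 1 residual degree of freedom. Limma then draws it towards that of the other genes, and their p-values and counts also reflect which pair that is. The highest counts came without mutant replicate 2, where Irs1, Nptx2, Shc3, Shc4 and Vgf were called lower and Npy and Sorcs1 higher. With the replicate block 113 genes were called lower and 3 higher, none of the 4 family genes among them, and Shc3 was still called. The crossed replicate block, chosen after seeing the data, called 17 lower and 0 higher. Of 193 values of the 14 named pathway genes under the alternatives, 189 kept direction and side of the threshold. The exceptions were Shc3, lost when all features were tested and without either control array, and Vgf, called without mutant replicate 2. Leaving out 1 mutant moved Sorcs3, Plat, Gipc1, Zfp110 and Carf by over 1.5 times, with the values given above. The cause of these shifts was not tested.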
